A study of Homo sapiens with 12 samples.

Results

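The 38 genes described here are MYC and 37 genes whose products build ribosomes in the nucleolus. They were taken by name from a list, which was chosen with earlier results of these data known. Each was read from the probe set that carries its symbol alone and has the highest mean over the 12 arrays. This gave 34 measured members among 18417 genes. NOP56 was read only by a probe set it shares with the small RNA gene SNORD56, PPAN only by one it shares with P2RY11, and no probe set of the annotation used here carried GNL3 or DDX18.

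The arrays measured RNA of Calu-3, an established line of human airway epithelium from a lung adenocarcinoma. On 3 arrays the cells had received a small interfering RNA aimed at SIN3A (SIN3A siRNA), on 3 a miR-138 mimic, a synthetic duplex that acts as this microRNA, and on 6 the scrambled RNA NC1 as the control. All 12 received their RNA through the same lipid reagent, with no group left without transfection, and neither dose nor time of harvest was stated. NC1 replicates 4 to 6 and replicates 1 to 3 are given apart, by the replicate numbers of the labels, because earlier results of these data showed that they differ. In the order of the samples NC1 1 to 3 stand before the siRNA arrays and NC1 4 to 6 before the mimic arrays. The labels do not say whether these were sets run together. If so, set and agent cannot be told apart in siRNA against NC1 4 to 6, mimic against NC1 1 to 3, or mimic against siRNA. The labels speak of biological replicates of 1 line and not of separate cultures, so the spread behind each p-value may be only technical. The extraction protocol mentions primary cultures, although the sample labels name the line. The epithelial genes of the line were all measured, with group means from 5.71 to 10.8 on the log2 scale. Their list averaged 7.62 to 7.81 by array. The fibroblast and endothelial lists averaged 4.31 to 4.60 and the leukocyte list 4.81 to 5.03, below the array medians of 5.09 to 5.16. Single genes of these lists had group means up to 6.07 (fibroblast), 5.82 (endothelial) and 8.90 (leukocyte, LYZ).

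Ribosome production starts in the nucleolus, where RNA polymerase I copies the ribosomal RNA genes. Small nucleolar ribonucleoproteins modify the transcript, the small subunit processome folds and cuts one part of it, and a further set of factors assembles the large subunit from the other. MYC is a transcription factor that pairs with MAX, binds the E-box, and is known to raise transcription of the polymerase I machinery and of many assembly factors. SIN3A holds together a complex with histone deacetylases. The MAX partners of the MXD family recruit it to E-boxes in place of MYC.

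The mimic is named after miR-138, whose main mature strand is shown because it is one of the 2 agents compared. It is encoded at 2 places of GRCh38.p14, chr3:44114234-44114256 and chr16:56858527-56858549, both on the plus strand, and RefSeq gives the same 23 bases for both. Capitals mark the seed, bases 2 to 8, which pairs with target RNAs.
hsa-miR-138-5p: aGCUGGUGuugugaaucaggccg

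Of the 38 members, 29 had a promoter in the RefSeq table of GRCh38.p14 (250 bases before to 50 after the start of the gene). The E-box CACGTG, which reads the same on both strands, stood in 10 of these 29 (34.5%). It stood in 1264 of 14239 promoters of measured genes (8.88%) and in 2030 of all 27305 promoters of the table (7.43%). In the members it began between positions -15 and 35 relative to the start of the gene, that is, within 50 bases of it in 10 of 10 cases, against 36.6% of the 2255 matches in all promoters. The members with the E-box were FBL, UTP20, WDR43, NOL6, NOP14, RRP9, BYSL, NAT10, PES1 and NOP2. Such a match is a description and not a proven site. The promoters of DDX21 (chr10:68955920-68956219, plus strand) and NIP7 (chr16:69339522-69339821, plus strand) are shown because these are the members that passed the test against all NC1 arrays, and those of UTP20 (chr12:101279855-101280154, plus strand) and NAT10 (chr11:34105379-34105678, plus strand) because they carry the E-box, in capitals, and were called higher with the mimic than on NC1 1 to 3. Those of DDX21 and NIP7 hold no CACGTG in this window.
DDX21: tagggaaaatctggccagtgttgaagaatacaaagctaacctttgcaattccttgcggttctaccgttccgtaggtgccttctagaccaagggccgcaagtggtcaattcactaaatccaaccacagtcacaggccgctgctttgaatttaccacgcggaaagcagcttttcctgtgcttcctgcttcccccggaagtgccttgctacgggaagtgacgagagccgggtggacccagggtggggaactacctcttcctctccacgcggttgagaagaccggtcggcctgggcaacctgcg
NIP7: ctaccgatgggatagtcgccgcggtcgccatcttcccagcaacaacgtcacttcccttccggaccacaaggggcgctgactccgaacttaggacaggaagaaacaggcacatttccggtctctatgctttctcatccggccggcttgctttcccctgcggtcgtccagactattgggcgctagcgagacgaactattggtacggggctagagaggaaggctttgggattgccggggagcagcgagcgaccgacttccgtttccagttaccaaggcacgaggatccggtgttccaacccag
UTP20: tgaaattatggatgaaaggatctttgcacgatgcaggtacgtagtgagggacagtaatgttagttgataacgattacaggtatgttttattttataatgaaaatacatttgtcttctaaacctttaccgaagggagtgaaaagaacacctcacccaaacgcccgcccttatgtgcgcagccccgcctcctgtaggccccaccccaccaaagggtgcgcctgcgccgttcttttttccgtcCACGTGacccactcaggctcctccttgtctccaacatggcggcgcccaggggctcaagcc
NAT10: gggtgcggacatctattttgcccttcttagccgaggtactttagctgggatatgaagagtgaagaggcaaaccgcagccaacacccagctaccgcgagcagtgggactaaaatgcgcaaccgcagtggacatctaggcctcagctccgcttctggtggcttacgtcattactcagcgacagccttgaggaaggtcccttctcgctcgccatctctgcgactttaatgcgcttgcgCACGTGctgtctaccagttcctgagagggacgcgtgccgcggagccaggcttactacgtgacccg

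SIN3A, the targeted gene, was lower in both treated groups. Its log2 levels were 6.17, 5.88 and 6.03 with SIN3A siRNA, 5.93, 6.05 and 6.25 with the mimic, 7.34, 7.16 and 7.11 on NC1 4 to 6, and 6.79, 6.71 and 6.36 on NC1 1 to 3. No treated array overlapped an NC1 array, and the parts of the control did not overlap each other either. The log2 difference from all NC1 arrays was -0.88 (SE 0.17, limma adjusted p = 0.0111) with the siRNA and -0.83 (SE 0.17, limma adjusted p = 0.0304) with the mimic.

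**Figure D1:**
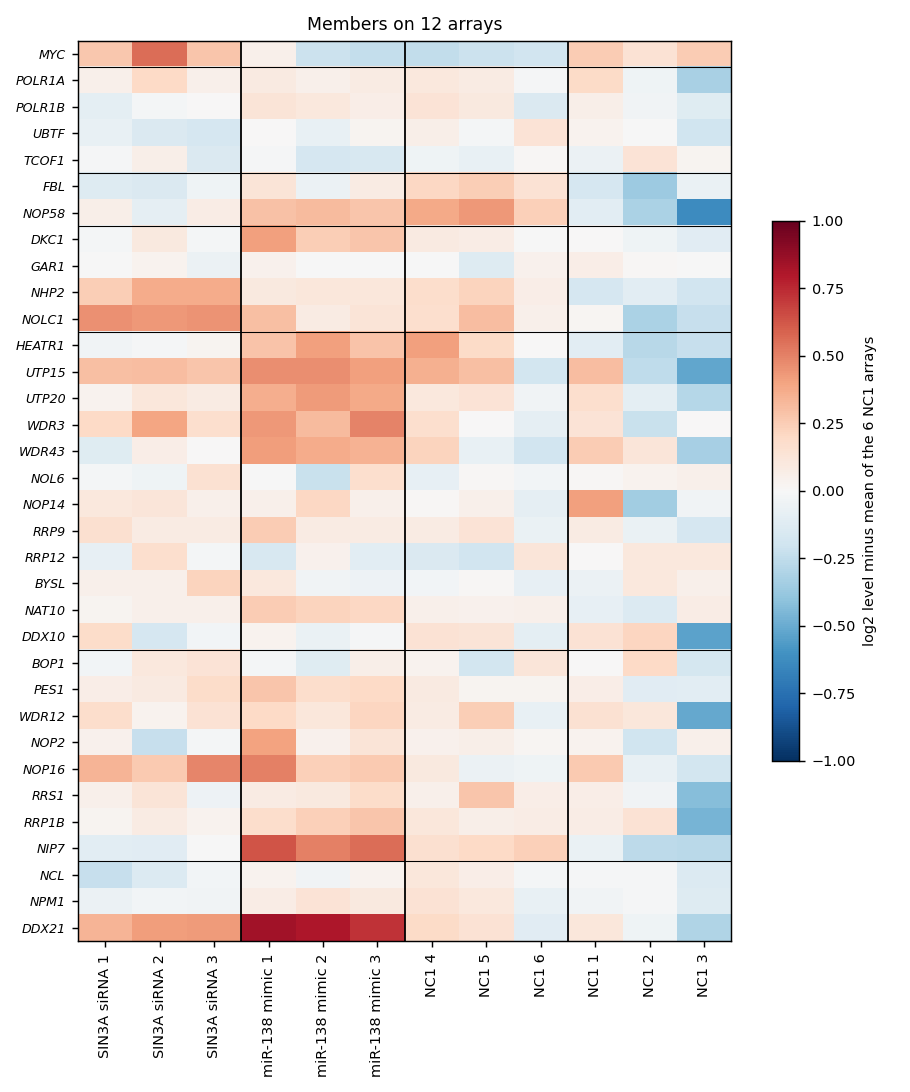
Rows are the 34 measured members grouped by role (lines between groups), columns the 12 arrays, and colour the log2 level minus the mean of the 6 NC1 arrays. DDX21 is red on all 6 treated arrays and deepest with the mimic, MYC is red with SIN3A siRNA and on NC1 1 to 3, and NC1 3 is blue for many rows.

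With the miR-138 mimic the group leaned upward against all NC1 arrays, and 2 of its 34 members passed the test. These were DDX21, a nucleolar RNA helicase that acts in ribosomal RNA processing and transcription, 1.73-fold higher than in all NC1 arrays, and NIP7, a factor of pre-ribosomal RNA processing, 1.48-fold higher. 0 members passed as lower. The median log2 difference of the members was 0.13, against -0.01 over all 18417 genes, and 27 of 34 lay above 0, against 44.7% of all genes. It was 0.09 without NC1 3 and 0.17 without NC1 5. Against NC1 1 to 3 the median was 0.25 and against NC1 4 to 6 it was 0.08, where the parts themselves differed by 0.10. The share called among members was 5.88%, where 1.04% of all genes were called by limma (0.641% higher, 0.402% lower). For 10 of 34 members the 3 mimic arrays exceeded all 6 NC1 arrays, where this held for 3.89% of all genes, and below them for 0, where 2.54% of all genes did so. The count of 2 was 6 in the fit with 4 group means, which keeps the parts of the control apart, and 1 to 3 with 1 array left out. The arrays compare equal amounts of RNA, so fewer cells with a transcript and less of it per cell cannot be told apart.

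With SIN3A siRNA 1 of 34 members passed, DDX21 at 1.31-fold higher than in all NC1 arrays, a share of 2.94% where 4.01% of all genes were called (2.35% higher, 1.66% lower). This count was 5 in the fit with 4 group means (DDX21, MYC, NHP2, NOLC1 and NOP16) and 0 to 3 with 1 array left out (0 without NC1 2, NC1 6, any siRNA or any mimic array). The median log2 difference was 0.04, against -0.01 over all genes, and 22 of 34 lay above 0, against 48.4% of all genes. The median was 0.02 without NC1 3 and 0.07 without NC1 4. For 4 of 34 members, MYC, NHP2 (chosen probe set), NOLC1 and DDX21, every siRNA array exceeded every NC1 array, where 5.49% of all genes did so. For 0 members every siRNA array lay below every NC1 array, where 3.53% of all genes did so.

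**Figure D2:**
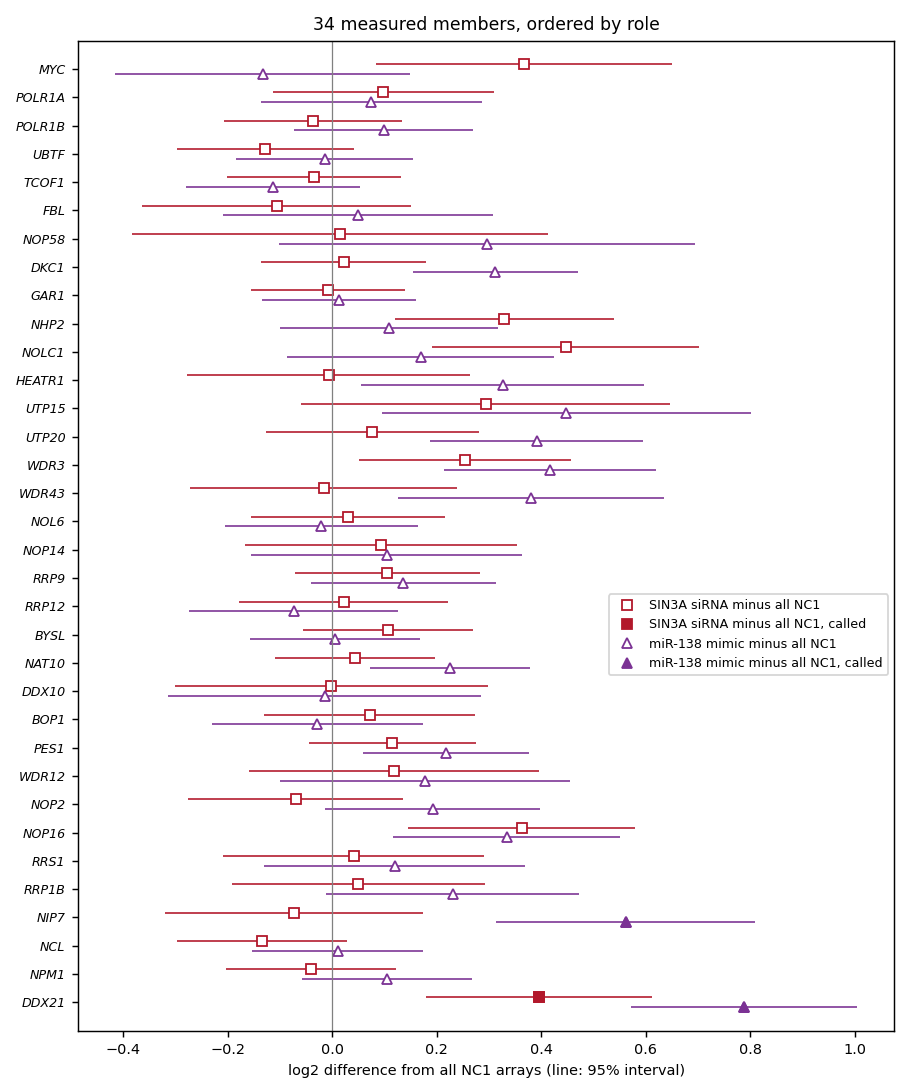
Points are log2 differences of the 34 members from the 6 NC1 arrays, squares for SIN3A siRNA and triangles for the miR-138 mimic, with lines for the 95% interval of the limma fit and filled symbols for called members. DDX21 is filled for both agents and NIP7 for the mimic alone, and the intervals of MYC, NHP2 and NOLC1, among others, lie above 0 for the siRNA without a call.

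DDX21 (probe set 7927936) had the smallest adjusted p of the 34 members with either agent against all NC1 arrays. Its log2 levels were 7.83, 7.90 and 7.92 with SIN3A siRNA, 8.33, 8.30 and 8.21 with the mimic, 7.68, 7.64 and 7.38 on NC1 4 to 6, and 7.61, 7.45 and 7.19 on NC1 1 to 3. All siRNA arrays lay above all NC1 arrays, and all mimic arrays above all siRNA arrays, while the parts of the control overlapped. The mimic differed from all NC1 arrays by 0.79 on the log2 scale (95% interval 0.57 to 1.00, limma adjusted p = 0.00181). The siRNA differed by 0.39 (95% interval 0.18 to 0.61, limma adjusted p = 0.0417). Two-sided exact permutation tests gave p = 0.0119, the smallest that 84 splits allow, for the mimic and 0.0238 for the siRNA. The rise with the mimic was called against either part of the control alone, at 0.86 (SE 0.11) against NC1 1 to 3 and 0.71 (SE 0.11) against NC1 4 to 6, and whichever array was left out. The rise with the siRNA was called against NC1 1 to 3 (0.47, SE 0.11, limma adjusted p = 0.0193, lost without NC1 3, siRNA 2 or siRNA 3) but not against NC1 4 to 6 (0.32, SE 0.11, limma adjusted p = 0.0772), and against all NC1 arrays it was lost without any 1 of 8 arrays (NC1 2 or 6, any siRNA or any mimic array; highest limma adjusted p = 0.173). The mimic minus siRNA difference was 0.39 (95% interval 0.14 to 0.64), which did not pass (limma adjusted p = 0.110) except without NC1 3 (0.0357), an array that enters only through the variance.

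NIP7 (probe set 7996934) was higher with the mimic than in any other group. Levels were 7.87, 7.86 and 7.97 with SIN3A siRNA, 8.60, 8.47 and 8.53 with the mimic, 8.13, 8.17 and 8.21 on NC1 4 to 6, and 7.90, 7.71 and 7.70 on NC1 1 to 3. The mimic arrays stood apart from all others, and the siRNA arrays overlapped NC1 1 to 3 and lay below NC1 4 to 6. The log2 difference of the mimic was 0.56 from all NC1 arrays (SE 0.12, limma adjusted p = 0.0310), 0.76 from NC1 1 to 3 (SE 0.09, limma adjusted p = 4.73e-05), 0.36 from NC1 4 to 6 (SE 0.09, limma adjusted p = 0.0260) and 0.63 from the siRNA (SE 0.13, limma adjusted p = 0.0292). NIP7 was the 1 member of 34 called between the 2 agents, a share of 2.94% where 1.57% of all genes were called (0.679% higher, 0.89% lower). The difference from all NC1 arrays was lost without NC1 1, NC1 2, any siRNA or any mimic array (highest limma adjusted p = 0.186), that from the siRNA without any 1 of the 6 arrays compared (highest 0.124), and that from NC1 4 to 6 without NC1 4, NC1 5 or any mimic array (highest 0.131). With the siRNA NIP7 differed from all NC1 arrays by -0.07 (95% interval -0.32 to 0.17).

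MYC (probe set 8148317) split the control arrays. Its levels were 6.74, 7.03 and 6.75 with SIN3A siRNA, 6.52, 6.26 and 6.23 with the mimic, 6.23, 6.26 and 6.28 on NC1 4 to 6, and 6.73, 6.62 and 6.73 on NC1 1 to 3. The siRNA arrays lay just above NC1 1 to 3 and far above NC1 4 to 6, and the mimic arrays lay beside NC1 4 to 6 and below NC1 1 to 3. NC1 4 to 6 was at 73.9% of NC1 1 to 3, a log2 difference of -0.44 with SE 0.10 (limma adjusted p = 0.0112), and this call was kept whichever array was left out. Against all NC1 arrays MYC differed by 0.37 with the siRNA (95% interval 0.08 to 0.65, limma adjusted p = 0.160) and by -0.13 with the mimic (95% interval -0.42 to 0.15, limma adjusted p = 0.796). The exact permutation p was 0.0238 for the siRNA and 0.405 for the mimic. With the siRNA the value was 0.58 against NC1 4 to 6 (SE 0.10, limma adjusted p = 0.00117, kept whichever array was left out) and 0.15 against NC1 1 to 3 (95% interval -0.07 to 0.37). With the mimic it was 0.09 against NC1 4 to 6 (95% interval -0.13 to 0.30) and -0.35 against NC1 1 to 3 (SE 0.10, limma adjusted p = 0.0434), a call lost without any 1 of 9 arrays (highest limma adjusted p = 0.176). The mimic minus siRNA difference was -0.50 (95% interval -0.83 to -0.17, limma adjusted p = 0.123).

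**Figure D3:**
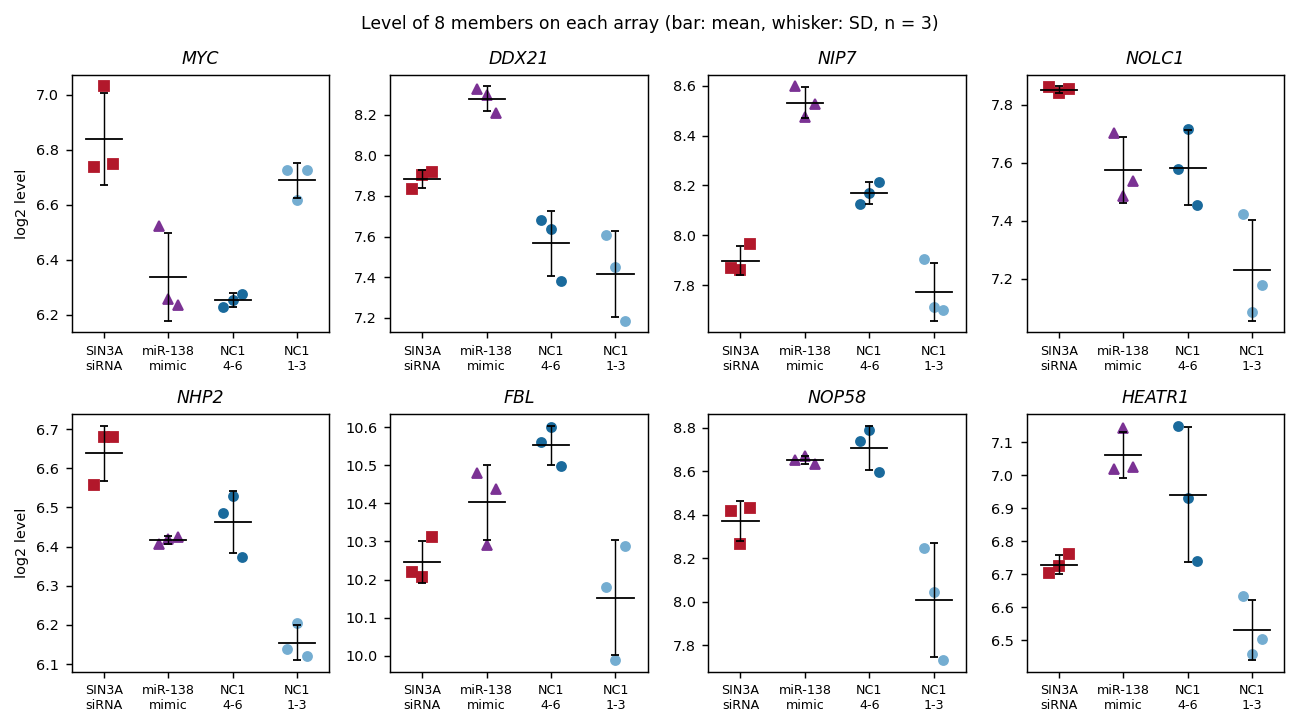
Each panel shows the log2 level of 1 member on every array, with the mean (bar) and SD (whisker) of each group of 3, and the vertical axes differ between panels and do not start at 0. DDX21 and NIP7 peak with the mimic, NOLC1 and NHP2 with the siRNA, and MYC is lower on NC1 4 to 6 than on NC1 1 to 3 where FBL, NOP58 and HEATR1 are higher.

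No member of RNA polymerase I transcription passed the test. POLR1A and POLR1B encode its catalytic subunits, UBTF the factor that keeps ribosomal DNA open, and TCOF1 treacle, which binds the polymerase and UBTF. By limma 0 of the 4 passed in any of the 8 comparisons, and 0 had an unadjusted p under 0.05 against all NC1 arrays, where 11.3% of all genes did with the mimic and 16.4% with the siRNA. Their log2 differences lay between -0.13 and 0.10 with the siRNA and between -0.11 and 0.10 with the mimic against all NC1 arrays. POLR1B had a mean level of 4.74, below the array medians, so its signal was dim. Among 13 further polymerase I genes 2 rose and 1 fell with the siRNA against all NC1 arrays (23.1%, where 4.01% of all genes were called). The subunit genes POLR1F (0.58, SE 0.10, limma adjusted p = 0.00723) and POLR1C (0.52, SE 0.12, limma adjusted p = 0.0227) rose. TAF1B, of the selectivity factor, fell (-0.55, SE 0.15, limma adjusted p = 0.0468). Its mean with the siRNA, 4.64, lay below the array medians. With the mimic RRN3, the initiation factor that recruits the polymerase, rose by 0.88 (SE 0.20, limma adjusted p = 0.0471), and 0 fell. This was 7.69% of the list, where 1.04% of all genes were called. Against NC1 1 to 3 alone 3 rose with the mimic, RRN3 among them (1.08), and 1 fell (30.8%, where 8.55% of all genes were called). Against NC1 4 to 6 alone 2 rose, without RRN3 (15.4%, where 3.49% were called). With the siRNA 2 rose against NC1 1 to 3 (15.4%, where 5.7% were called). Against NC1 4 to 6, 3 rose and TAF1B fell (30.8%, where 11.4% were called). Between the parts of the control 0 of the 13 were higher and 2 lower on NC1 4 to 6 (15.4%, where 10% of all genes were called). RRN3 has near-identical copies in the genome, which its probes may also read.

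Both measured proteins of the box C/D particle, which guides methylation of ribosomal RNA, differed between the parts of the control, and neither passed with either agent against all NC1 arrays. FBL, the methyltransferase, had levels of 10.22, 10.21 and 10.31 with SIN3A siRNA, 10.48, 10.29 and 10.44 with the mimic, 10.56, 10.60 and 10.50 on NC1 4 to 6, and 10.18, 9.99 and 10.29 on NC1 1 to 3. NOP58, a core scaffold protein, had 8.42, 8.27 and 8.43 with SIN3A siRNA, 8.65, 8.67 and 8.63 with the mimic, 8.74, 8.79 and 8.59 on NC1 4 to 6, and 8.25, 8.04 and 7.73 on NC1 1 to 3. For both genes the parts of the control did not overlap, and the treated groups lay between the part means. NC1 4 to 6 was higher than NC1 1 to 3 by 0.70 for NOP58 (SE 0.11, limma adjusted p = 0.000723) and by 0.40 for FBL (SE 0.09, limma adjusted p = 0.0114, lost without NC1 2 or NC1 5). NOP58 was therefore at 0.64 with the mimic against NC1 1 to 3 (SE 0.11, limma adjusted p = 0.00192) and at -0.05 against NC1 4 to 6, and FBL was at -0.31 with the siRNA against NC1 4 to 6 (limma adjusted p = 0.0449, lost without any 1 of 9 arrays) and at 0.09 against NC1 1 to 3. The probe set that NOP56, the partner scaffold, shares with SNORD56 averaged 5.34 with the siRNA, 5.72 with the mimic, 5.88 on NC1 4 to 6 and 5.40 on NC1 1 to 3, with no test.

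The box H/ACA group turns uridines into pseudouridines, with DKC1 as its enzyme, GAR1 and NHP2 as core proteins, and NOLC1 (Nopp140) as a chaperone of both particle types. NOLC1 had levels of 7.86, 7.84 and 7.85 with SIN3A siRNA, 7.70, 7.49 and 7.54 with the mimic, 7.58, 7.72 and 7.46 on NC1 4 to 6, and 7.42, 7.09 and 7.18 on NC1 1 to 3. NHP2 had 6.56, 6.68 and 6.68 with SIN3A siRNA, 6.41, 6.42 and 6.43 with the mimic, 6.49, 6.53 and 6.37 on NC1 4 to 6, and 6.14, 6.20 and 6.12 on NC1 1 to 3. For both genes the siRNA arrays lay above every other array on the chosen probe set. Against all NC1 arrays neither passed with the siRNA, with NOLC1 at 0.45 (SE 0.12, limma adjusted p = 0.0510) and NHP2 at 0.33 (SE 0.10, limma adjusted p = 0.0798). Against NC1 1 to 3 both rose, NOLC1 by 0.62 (SE 0.10, limma adjusted p = 0.00237) and NHP2 by 0.48 (SE 0.08, limma adjusted p = 0.00277), whichever array was left out. Against NC1 4 to 6 they were at 0.27 (limma adjusted p = 0.119) and 0.18 (limma adjusted p = 0.222), since both were higher on NC1 4 to 6 than on NC1 1 to 3, by 0.35 (NOLC1, limma adjusted p = 0.0391, lost without any 1 of 8 arrays) and 0.31 (NHP2, limma adjusted p = 0.0240, lost without NC1 3, 4 or 5). A further NHP2 probe set, at a mean of 5.36 on all NC1 arrays, differed by 0.21 with the siRNA. Its siRNA arrays (5.48 to 5.72) overlapped the NC1 arrays (5.14 to 5.53). Between NC1 4 to 6 and NC1 1 to 3 it differed by 0.04. The chosen NHP2 probe set may read a near-identical copy of the gene, which was not checked, so its calls may not be those of NHP2 itself. DKC1 was at 0.31 with the mimic against all NC1 arrays (SE 0.07, limma adjusted p = 0.0605) and at 0.02 with the siRNA. GAR1 stayed within -0.05 and 0.04 in all 8 comparisons, none of them called.

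Mimic arrays lay above all control arrays for 10 members, where this held for 3.89% of all genes. The small subunit group, 12 of the 34 measured members, held 5 of these 10. Against all NC1 arrays 0 of its 12 genes passed by limma with either agent (unadjusted p under 0.05 for 6 with the mimic and 1 with the siRNA, where 11.3% and 16.4% of all genes had one). The mimic arrays lay above all 6 NC1 arrays for UTP15 (log2 difference 0.45), WDR3 (0.42, SE 0.09, limma adjusted p = 0.0514), UTP20 (0.39, SE 0.10, limma adjusted p = 0.0692), WDR43 (0.38) and NAT10 (0.23). UTP15 and WDR43 belong to the processome module that also supports ribosomal RNA transcription, WDR3 and UTP20 are processome subunits, and NAT10 acetylates small subunit RNA. Against NC1 1 to 3 alone, 5 of the 12 rose with the mimic, a share of 41.7% where 6.01% of all genes were called higher, namely UTP15 (0.61), HEATR1 (0.53), UTP20 (0.46), WDR3 (0.44) and NAT10 (0.27). HEATR1 and UTP20 kept this call whichever array was left out, while UTP15 lost it without NC1 2, NC1 3 or any mimic array, WDR3 without NC1 2, mimic 1 or mimic 3, and NAT10 without any 1 of 10 arrays. Against NC1 4 to 6 alone 0 of the 12 did by limma (unadjusted p under 0.05 for 4, where 12.3% of all genes had one), where 1.59% of all genes were called higher, and the values of the same genes were 0.29, 0.12, 0.32, 0.39 and 0.18. The remaining members, NOL6, NOP14, RRP9, RRP12, BYSL and DDX10, lay between -0.07 and 0.14 with the mimic and between -0.00 and 0.11 with the siRNA against all NC1 arrays.

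HEATR1, a processome subunit of the same transcription module, shows how the parts of the control set the size. Its levels were 6.70, 6.72 and 6.76 with SIN3A siRNA, 7.02, 7.14 and 7.02 with the mimic, 7.15, 6.93 and 6.74 on NC1 4 to 6, and 6.63, 6.46 and 6.50 on NC1 1 to 3. The mimic arrays overlapped NC1 4 to 6 and lay above NC1 1 to 3. NC1 4 to 6 was 0.41 higher than NC1 1 to 3 (SE 0.10, limma adjusted p = 0.0157, lost without NC1 2, 4 or 5).

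Of 8 large subunit assembly genes measured, 1, NIP7, was called with the mimic against all NC1 arrays (12.5%, where 1.04% of all genes were). With the siRNA 0 of the 8 were called against all NC1 arrays, where 4.01% of all genes were. BOP1, PES1 and WDR12 form the complex that processes the large subunit precursor. Their differences with the mimic against all NC1 arrays were -0.03, 0.22 and 0.18, and with the siRNA 0.07, 0.11 and 0.12, none called. A further BOP1 probe set had the opposite signs, 0.12 with the mimic and -0.05 with the siRNA, with no test. The mimic arrays of PES1 and of RRP1B, a ribosomal RNA processing protein (0.23), lay above all NC1 arrays, where this held for 3.89% of all genes. NOP16 was at similar values with both agents, 0.33 with the mimic (SE 0.10, limma adjusted p = 0.165) and 0.36 with the siRNA (SE 0.10, limma adjusted p = 0.0616), and NC1 4 to 6 and NC1 1 to 3 differed by -0.01. NOP2, an RNA methyltransferase, was at 0.19 with the mimic and -0.07 with the siRNA, and RRS1 at 0.12 and 0.04, none of them called. The shared probe set of PPAN averaged 5.56 with the siRNA, 5.50 with the mimic and 5.47 on all NC1 arrays.

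The abundant nucleolar proteins nucleolin (NCL) and nucleophosmin (NPM1) did not pass with either agent. NCL differed by 0.01 with the mimic (95% interval -0.15 to 0.17) and by -0.13 with the siRNA (-0.30 to 0.03) against all NC1 arrays. NPM1 differed by 0.10 (-0.06 to 0.27) and -0.04 (-0.20 to 0.12). NPM1 has 4 probe sets, and near-identical copies in the genome may add to their signal. Of the other 3, the bright pair was at 0.12 and 0.09 with the mimic and the dim one, at a mean of 4.85 on all NC1 arrays, at 0.16.

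**Figure D4:**
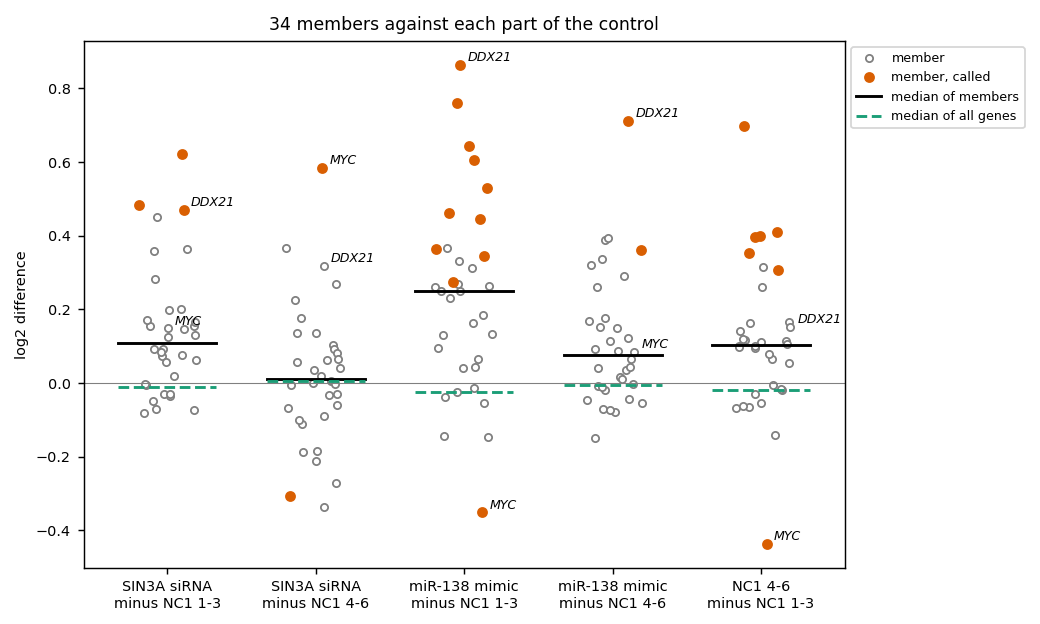
Points are the log2 differences of the 34 members in 5 comparisons, filled where called, with solid lines for the median of the members and dashed lines for the median of all genes. The median of the members is 0.25 for the mimic against NC1 1 to 3, 0.08 against NC1 4 to 6, and 0.10 between NC1 4 to 6 and NC1 1 to 3, where MYC lies lowest.

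Because both agents were set against controls that differ, the counts moved with the part of the control. The mimic gave 10 higher and 1 lower member against NC1 1 to 3 (32.4% called, where 8.55% of all genes were, 6.01% higher and 2.54% lower) and 2 higher against NC1 4 to 6 (5.88%, where 3.49% of all genes were, 1.59% higher and 1.89% lower). The siRNA gave 3 higher against NC1 1 to 3 (8.82%, where 5.7% of all genes were called, 3.66% higher and 2.04% lower) and 1 higher and 1 lower against NC1 4 to 6 (5.88%, where 11.4% were, 5.16% higher and 6.28% lower). Median log2 differences of the members were 0.25 and 0.08 for the mimic and 0.11 and 0.01 for the siRNA, against -0.02 and -0.00 and against -0.01 and 0.00 over all genes. With 1 array left out, the median against NC1 4 to 6 ran from 0.04 (without NC1 6) to 0.09 for the mimic and from -0.02 (without NC1 6) to 0.03 for the siRNA, and the siRNA value turned sign. NC1 4 to 6 itself had 6 members higher and 1 lower than NC1 1 to 3, a share of 20.6% where 10% of all genes were called (6.86% higher, 3.18% lower). Higher were NOP58, HEATR1, FBL, NIP7, NOLC1 and, on its chosen probe set, NHP2. MYC was lower, so MYC ran opposite to the members called with it. DDX21 was at 0.15 in that comparison (95% interval -0.08 to 0.39). Comparisons that use the same control arrays are not independent of each other.

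Growth markers moved along the same control split. In the list of 14 proliferation genes 10 were higher and 0 lower on NC1 4 to 6 than on NC1 1 to 3 (71.4%, where 10% of all genes were called). Array averages were 7.01 to 7.19 on NC1 4 to 6 and 6.48 to 6.82 on NC1 1 to 3. They were 6.54 to 6.60 with the siRNA and 6.39 to 6.53 with the mimic. With the mimic 2 of the 14 fell against all NC1 arrays, MKI67 (-0.71) and PCNA (-1.19), and with the siRNA 1, TYMS (-1.30). These were 14.3% and 7.14% of the list, where 1.04% and 4.01% of all genes were called. Against NC1 4 to 6 alone 11 of the 14 were lower with the mimic (median -0.56), where 1.89% of all genes were called lower. With the siRNA 6 were lower (median -0.30), where 6.28% of all genes were called lower. Against NC1 1 to 3 alone 2 were lower with the mimic and 1 with the siRNA, where 2.54% and 2.04% of all genes were. The part of these growth markers in the results on the members was not tested. Of the other cell types, 0 of 9 fibroblast and 0 of 6 endothelial markers passed in any of the 8 comparisons, and of 7 leukocyte markers 1, LYZ, was lower with the mimic than on NC1 1 to 3 (-0.39). Of the 10 epithelial genes of the line, CFTR was lower with the siRNA than in all NC1 arrays (-1.34, SE 0.14, limma adjusted p = 0.000203), ELF3 lower with the siRNA than on NC1 4 to 6 (-0.38), MUC1 lower with the mimic than on NC1 1 to 3 (-0.73), CFTR lower with the mimic than on NC1 4 to 6 (-0.57), and KRT8 higher on NC1 4 to 6 than on NC1 1 to 3 (0.39).

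In wider lists of the same pathway the share called differed between lists, agents and parts of the control. Against all NC1 arrays 3 of 39 further small subunit genes rose with the siRNA, UTP6 (0.42), RIOK1 (0.52) and RRP36 (0.47), and RRP7A fell (-0.43), a share of 10.3% where 4.01% of all genes were called, and 0 of 39 passed with the mimic, where 1.04% of all genes were called. Against NC1 1 to 3 alone 9 of the 39 rose with the mimic and 0 fell, a share of 23.1% where 8.55% of all genes were called, with UTP4 (0.45), EMG1 (0.57), TSR1 (0.53) and UTP18 (0.58) at the smallest adjusted p. Against NC1 4 to 6 alone 1 of the 39 rose with the mimic (2.56%, where 3.49% of all genes were called). With the siRNA 4 rose and 1 fell (12.8%, where 11.4% of all genes were called). LYAR, a nucleolar factor of ribosomal RNA processing, was the 1 of 38 further large subunit genes called with the siRNA (0.72, SE 0.16, limma adjusted p = 0.0185). This was a share of 2.63%, where 4.01% of all genes were called, and 0 passed with the mimic. NOP10, the fourth core protein of the H/ACA particle, rose by 0.54 with the siRNA (SE 0.11, limma adjusted p = 0.0176), as did the assembly ATPase gene RUVBL2 (0.32), 2 of 8 further particle genes (25%, where 4.01% of all genes were called), with 0 for the mimic. In the exosome, which trims ribosomal RNA, EXOSC7 rose (0.42) and EXOSC3 fell (-0.55) with the siRNA among 14 genes (14.3%, where 4.01% of all genes were called), with 0 for the mimic. Medians of these 4 lists lay between -0.00 and 0.12 with the siRNA and between -0.03 and 0.19 with the mimic.

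Of 39 ribosomal protein genes, 1 rose with the siRNA, RPL7A (0.27, limma adjusted p = 0.0485). With the mimic 1 fell, RPL5 (-0.41, SE 0.07, limma adjusted p = 0.0112), a protein that enters the large subunit together with the smallest ribosomal RNA. Each was 2.56% of the list, where 4.01% of all genes were called with the siRNA and 1.04% with the mimic. RPL5 was called lower with the mimic against each part of the control too, at -0.45 against NC1 1 to 3 and -0.38 against NC1 4 to 6. Against NC1 1 to 3 alone 6 of the 39 rose and 1 fell with the mimic (17.9%, where 8.55% of all genes were called). On NC1 4 to 6, 6 were higher and 0 lower than on NC1 1 to 3 (15.4%, where 10% of all genes were called). Many ribosomal protein genes have near-identical copies, and these values may include them. In the MYC and MAX network 0 of 13 genes passed with either agent against all NC1 arrays, where 4.01% (siRNA) and 1.04% (mimic) of all genes did. With the siRNA MAX (0.48) and MXD1 (0.53) were called higher than on NC1 4 to 6 (15.4%, where 11.4% of all genes were called). MLX was called higher than on NC1 1 to 3 with the siRNA (0.33) and the mimic (0.37). Each was 7.69% of the list, where 5.7% and 8.55% of all genes were called. NC1 4 to 6 had less MXD1 (-0.57, SE 0.11, limma adjusted p = 0.00302) and MAX (-0.40, SE 0.10, limma adjusted p = 0.0134) and more MLX (0.32, limma adjusted p = 0.0300) than NC1 1 to 3. These were 23.1% of the list, where 10% of all genes were called.

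Among 44 MYC target genes outside the nucleolus, SLC7A5 (0.60, SE 0.08, limma adjusted p = 0.00348) and SLC3A2 (0.42, SE 0.08, limma adjusted p = 0.0210), the chains of 1 amino acid transporter, rose with the mimic against all NC1 arrays. Both also exceeded the siRNA arrays, by 0.62 (limma adjusted p = 0.00649) and 0.49 (limma adjusted p = 0.0173). With the siRNA PHB2 (0.39) rose and IARS1 (-0.69), an aminoacyl tRNA synthetase, fell. Each agent thus had 2 of 44 called (4.55%), where 1.04% of all genes were called with the mimic and 4.01% with the siRNA. The counts differed by part of the control. With the mimic 14 were higher and 1 lower than on NC1 1 to 3 (34.1%, where 8.55% of all genes were called). Against NC1 4 to 6, 2 were higher (4.55%, where 3.49% of all genes were called). With the siRNA 2 were higher and 2 lower than on NC1 1 to 3 (9.09%, where 5.7% of all genes were called). Against NC1 4 to 6, 1 was higher and 11 lower (27.3%, where 11.4% of all genes were called). Between the parts of the control 14 of the 44 were higher and 1 lower on NC1 4 to 6 (34.1%, where 10% of all genes were called), with a list median of 0.22. The smallest adjusted p values were those of CDK4 (0.81), CTPS1 (0.68), POLR3G (0.55) and PRMT1 (0.56). In the RNA polymerase III list of 16, POLR3A rose with the siRNA (0.54, limma adjusted p = 0.00501) and 0 passed with the mimic. The share with the siRNA was 6.25%, where 4.01% of all genes were called. In the SIN3-HDAC list of 16 SIN3A and, as higher, BRMS1 (0.43) were called with the siRNA, and SIN3A alone with the mimic. These were shares of 12.5% and 6.25%, where 4.01% and 1.04% of all genes were called. Between the parts of the control 6 of these 16 were higher and 1 lower on NC1 4 to 6 (43.8%, where 10% of all genes were called).

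The members were also split by the E-box. The 10 members with CACGTG had a median log2 difference of 0.16 with the mimic and 0.06 with the siRNA against all NC1 arrays, and the 16 measured members whose promoter lacks it in this window had 0.14 and 0.01. Between NC1 4 to 6 and NC1 1 to 3, where MYC was lower, the medians were 0.09 with and 0.12 without it. These values are given with no test.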

How the data were processed

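RNA of 12 Calu-3 samples was measured on 1-colour arrays. The deposited values are log2 levels, 1 per probe set, and RMA and Partek 6.3 are named per the submitters' processing notes, with no role or order. They were used as deposited, since they ran from 1.43 to 13.2 with array medians of 5.09 to 5.16. Of 33297 probe sets, 19460 carried 1 gene symbol, 1754 several and 12083 none, and 18417 genes resulted. No dim gene was removed.

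In limma 3.58.1 (R 4.3.3) a fit with 3 group means (9 residual degrees of freedom) gave the comparisons with all NC1 arrays and between the agents, and a fit with 4 group means, NC1 1 to 3 and 4 to 6 apart (8), gave the others. A gene was called where its limma p, adjusted by Benjamini-Hochberg across the 18417 genes, was under 0.05, and "rose", "fell" and "passed" refer to them. MYC, DDX21 and SIN3A also had exact permutation tests, whose smallest p is 0.1 for 3 against 3 arrays. Fits were tested on simulated data in which both parts of the control shared the same mean for each gene. The fit with all NC1 arrays was therefore not tested with a control split like that of the real data. Arrays give no counts, so their number limits precision: the median SE of a member was 0.10 against all NC1 arrays.

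The members, lists, motif and control split were chosen with earlier results of these data known. The rule named MYC, DDX21, SIN3A, up to 10 called members per comparison and up to 4 called genes per wider list, and members outside it are given by role group. The promoters to show were chosen after the values were seen. Alternatives were a second quantile normalization, median centring, a filter on dim genes, the mean of a gene's probe sets, an intensity trend, a replicate block, other fits and leaving out each array.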

Additional observations from a re-analysis of the deposited data

Results flagged for a closer look

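In 3 members, among 35 genes examined, 1 of the 6 NC1 arrays lay far from the other 5, and chance alone gives this in about 1 in 20 groups. RRP1B was at 5.21 on NC1 3, where the nearest NC1 array was at 5.73 and the farthest at 5.81. NOP2 was at 5.48 on NC1 2, with the others from 5.70 to 5.74. GAR1 was at 6.73 on NC1 5, with the others from 6.86 to 6.92.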

How the results depend on the processing

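The direction of every called member result held in all settings run, but many calls did not: of 29 calls of a member in a comparison, 13 held whichever of the 12 arrays was left out and 16 were lost without at least 1. For SIN3A siRNA minus all NC1 (1 member called) the count was 3 after a second quantile normalization, 2 after median centring, 3 without dim genes and 5 with 4 group means. For the mimic minus all NC1 (2 called) it was 4, 2, 5 and 6 under the same settings, and quantile normalization gave 2 for the mimic minus siRNA (1 called). For the siRNA minus NC1 4 to 6 (2 called) it was 5 after quantile normalization, 1 after centring, 6 without dim genes, 5 with an intensity trend and 4 with the arrays compared alone. With those arrays alone it was 4 for the mimic minus NC1 1 to 3 (11 called) and 3 for NC1 4 to 6 minus NC1 1 to 3 (7 called).

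Leaving out 1 array gave 0 to 3 members for the siRNA minus all NC1, 1 to 3 for the mimic minus all NC1, 0 to 2 for the mimic minus siRNA, 2 to 6 and 1 to 6 for the siRNA minus NC1 1 to 3 and minus NC1 4 to 6, 6 to 12 and 1 to 4 for the mimic minus the same parts, and 3 to 8 for NC1 4 to 6 minus NC1 1 to 3. The median of the members ranged from 0.0417 to 0.18 for the siRNA minus NC1 1 to 3, from 0.13 to 0.27 for the mimic minus NC1 1 to 3 and from 0.0384 to 0.158 for NC1 4 to 6 minus NC1 1 to 3, lowest without NC1 3 in each. It ranged from 0.0178 to 0.0738 for the siRNA and 0.0882 to 0.169 for the mimic minus all NC1, from -0.0191 to 0.0328 for the siRNA and 0.0369 to 0.0931 for the mimic minus NC1 4 to 6, and from 0.0915 to 0.126 for the mimic minus siRNA.

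Among the siRNA, mimic and NC1 1 to 3 arrays, deviations of same-numbered arrays correlated at -0.10 to 0.03, with no sign of pairing by replicate number. A pairing of NC1 4 to 6 with treated arrays was not checked. With the number as a replicate block, in which NC1 4 to 6 no longer bear on the differences, the count was 3 for the siRNA (median 0.11), 8 for the mimic (median 0.25) and 2 for the mimic minus siRNA. NHP2 lost its call between NC1 4 to 6 and NC1 1 to 3 with the mean of its probe sets (0.18, limma adjusted p = 0.256). The cause of these shifts was not tested, and signal over background is not known from these values.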
